A study of Mus musculus with 6 samples.

Results

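The integrated stress response was followed here through 7 genes, the transcription factors Atf4, Atf5, Atf3, Ddit3, Cebpb and Cebpg and the pseudokinase gene Trib3, in fetal mouse hearts with and without functional Hif1a in the heart muscle lineage. The genes were taken by symbol from a table of 15118 genes, each symbol had a single row, and all 7 passed the filter on low values. The RNA-seq libraries came from 6 whole hearts of Black-Swiss embryos, collected at the stage E12.5. The 3 control hearts (numbers 2, 5 and 9) had the genotype NKX2-5 Cre/WT with Hif1a WT/flox, and the 3 mutant hearts (numbers 5, 8 and 10) had NKX2-5 Cre/WT with Hif1a Null/flox. All embryos of both groups thus carried Cre in 1 allele of Nkx2-5, a gene of the early heart lineage, and a floxed Hif1a allele. Cells without Cre activity in the mutant hearts still held the floxed allele in its unrecombined form beside the null allele, while those in control hearts also held the wild-type allele.

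The integrated stress response begins when a kinase that senses amino acid shortage, unfolded protein, viral RNA or haem shortage phosphorylates the translation factor eIF2. Most translation then falls, while the Atf4 transcript, whose leader holds upstream reading frames, is translated more. The ATF4 protein pairs with C/EBP proteins and other basic leucine zipper (bZIP) factors on composite DNA elements and activates genes of amino acid uptake and synthesis, and Ddit3, Atf3, Atf5 and Trib3 are known as genes further along this path. RNA levels, which are what was measured here, do not show the phosphorylation or translation steps.

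Values are RPKM, that is reads per kilobase of the exons the authors used for a gene and per 1000000 library reads, with mean ± SD over 3 hearts. Log2 changes are mutant minus control on log2(RPKM + 1), a scale on which changes of low genes come out too small, with limma's p-value adjusted over 13080 tested genes and a threshold of 0.05. The labels describe separate hearts and nothing more, so a p-value here covers only the spread among these samples, which may be technical. In whole hearts, fewer cells of a type and less RNA per cell cannot be told apart. The steps between low values implied from 100800000 to 158300000 reads behind a library. Along the first principal component (45.3% of the variance) control 2 and mutant 8 were farthest apart. Chromosome Y genes were near 0 in control 9 and mutant 8, with Eif2s3y at 0.005 and 0.037 RPKM there and between 18.8 and 27.7 RPKM in the other hearts. All 12 heart muscle markers were detected, with a summed level of 18949 to 20944 RPKM in control and 20066 to 21780.3 RPKM in mutant hearts. Hif1a itself measured 61.1, 46.4 and 46.4 RPKM in controls 2, 5 and 9 and 75.7, 55.0 and 77.7 RPKM in mutants 5, 8 and 10 (log2 change 0.43 ± 0.16 SE, limma adjusted p = 0.36). In the 4 hearts without control 2 and mutant 8, the Hif1a log2 change was 0.71 and passed the threshold (limma adjusted p = 0.013). The sources used here do not state which exons are missing from either mutant allele, so this value is no check of the deletion.

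Transcripts of 5 of the 7 genes, Trib3, Ddit3, Atf5, Atf4 and Cebpb, were higher in the mutant hearts, and none were lower. Trib3 rose 11.0-fold in mean RPKM, Ddit3 4.08-fold, Atf5 3.11-fold, Cebpb 2.28-fold and Atf4 1.90-fold. Cebpg (1.51-fold) and Atf3 (1.31-fold) did not pass the threshold. Over all tested genes 0.818% passed it in either direction, 0.42% upward and 0.398% downward, and 42.6% had a log2 change above 0, as all 7 genes did. All mutant hearts were above all control hearts in 6 of the 7 genes, against 7.6% of all tested genes. Atf3 was the exception. These transcripts lay far above the counting limit, with between 229 and 21307 reads implied behind each value and a counting SD of at most 0.051 on the log2 scale, against SDs between hearts of a genotype from 0.08 to 0.28.

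**Figure D1:**
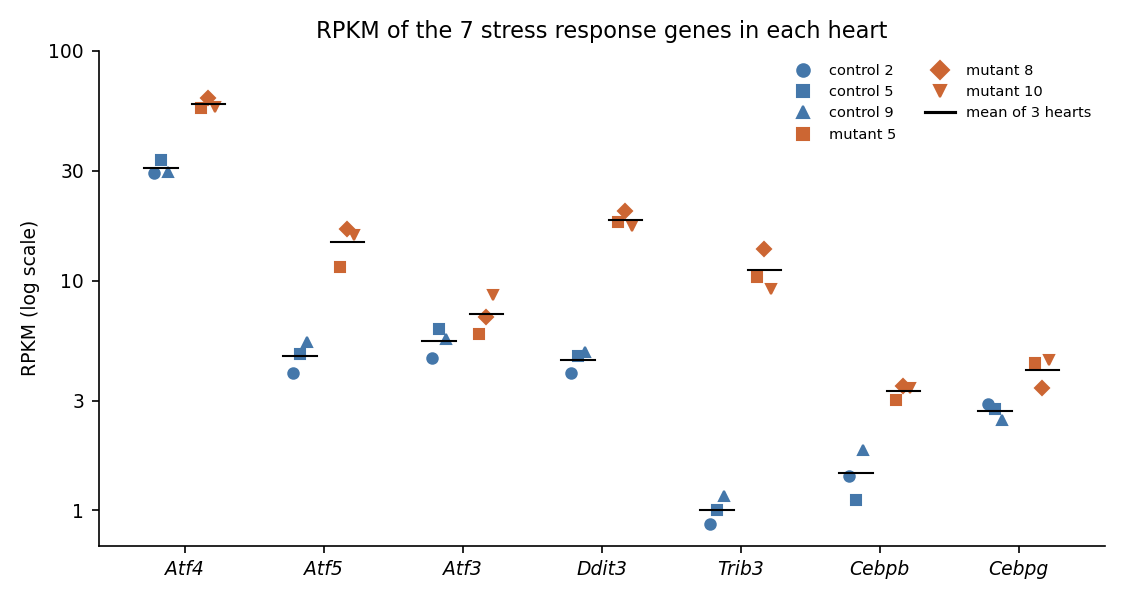
RPKM of the 7 genes (log axis) in each control heart (blue) and mutant heart (orange), symbols marking the heart numbers, with a bar at the mean of 3 hearts. In every gene but Atf3 the 3 mutant hearts lie above the 3 control hearts, with the widest gap in Trib3 (smallest mutant value 8.04 times the largest control value).

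Atf4 (ENSMUSG00000042406, mm10 chromosome 15, 80255184 to 80257541, plus strand), the central activator of the response, was the most abundant of the 7. It measured 29.5, 33.5 and 29.7 RPKM in controls 2, 5 and 9 and 56.5, 62.3 and 57.1 RPKM in mutants 5, 8 and 10. Each mutant heart held at least 1.69 times the level of the highest control. The means were 30.9 ± 2.27 and 58.6 ± 3.16 RPKM (SD, n = 3; log2 change 0.90 ± 0.09 SE, limma adjusted p = 0.0028). Atf4 ranked 53 among 13080 genes by its change and 23 by its p-value.

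Atf5 (ENSMUSG00000038539, chromosome 7, 44812256 to 44816658, minus strand), a bZIP factor whose transcript is also controlled through upstream reading frames and which is known from the mitochondrial stress response, was at 3.94, 4.80 and 5.38 RPKM in controls 2, 5 and 9. The mutant hearts 5, 8 and 10 had 11.4, 16.8 and 15.8 RPKM. Mutant 5 was the lowest of the 3 and still 2.11 times the highest control. The means were 4.71 ± 0.725 and 14.7 ± 2.89 RPKM (SD, n = 3; log2 change 1.45 ± 0.16 SE, limma adjusted p = 0.0034). Atf5 shares 82 exon bases with Il4i1 and with Nup62 on the opposite strand, and the sources used here do not state whether the libraries keep strand. Il4i1 measured 20.0 ± 1.92 and 27.9 ± 3.69 RPKM (SD, n = 3; limma adjusted p = 0.17).

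Ddit3 (ENSMUSG00000025408, chromosome 10, 127290774 to 127296288, plus strand) encodes CHOP, a C/EBP relative that forms dimers with other C/EBP proteins and is known for cell death under lasting stress. Its level was 3.96, 4.70 and 4.89 RPKM in controls 2, 5 and 9, against 18.0, 20.1 and 17.2 RPKM in mutants 5, 8 and 10. The spread within each genotype was small beside the gap, with the lowest mutant value 3.53 times the highest control value. The means were 4.51 ± 0.489 and 18.4 ± 1.47 RPKM (SD, n = 3; log2 change 1.82 ± 0.11 SE, limma adjusted p = 9.7e-05). Ddit3 shares 68 exon bases with Mars, the methionyl-tRNA synthetase gene on the opposite strand, which measured 14.4 ± 1.33 and 22.9 ± 1.95 RPKM (SD, n = 3). Mars passed the threshold (log2 change 0.64, limma adjusted p = 0.032) but not when any heart except mutant 5 was left out (adjusted p between 0.066 and 0.18).

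Trib3 (ENSMUSG00000032715, chromosome 2, 152337422 to 152344032, minus strand) encodes a pseudokinase that binds ATF4 and CHOP and limits their activity. It had the lowest level of the 7 in control hearts, 0.869, 1.0 and 1.15 RPKM in controls 2, 5 and 9. Mutants 5, 8 and 10 had 10.4, 13.7 and 9.21 RPKM. Among all tested genes only 1 had a larger log2 change, since Trib3 ranked 2 of 13080. The means were 1.01 ± 0.138 and 11.1 ± 2.35 RPKM (SD, n = 3; log2 change 2.58 ± 0.14 SE, limma adjusted p = 7.2e-05), and with a pseudocount of 0.1 in place of 1 the log2 change was 3.33.

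Cebpb (ENSMUSG00000056501, chromosome 2, 167688915 to 167690418, plus strand), a C/EBP factor of inflammation and metabolism that can pair with ATF4 and CHOP, was expressed at a low level. Its level was 1.41, 1.11 and 1.83 RPKM in controls 2, 5 and 9, against 3.01, 3.47 and 3.39 RPKM in mutants 5, 8 and 10. The control hearts varied more than the mutant hearts, and the groups stayed apart. The means were 1.45 ± 0.361 and 3.29 ± 0.245 RPKM (SD, n = 3; log2 change 0.82 ± 0.12 SE, limma adjusted p = 0.021). The call was lost without control 2 (limma adjusted p = 0.084), control 5 (0.098), mutant 8 (0.059) or mutant 10 (0.12), with log2 changes between 0.72 and 0.81. Cebpb shares 312 exon bases with Tmem189 on the opposite strand, and Tmem189 measured 6.87 ± 0.696 and 7.65 ± 0.726 RPKM (SD, n = 3; limma adjusted p = 0.68). Macrophages also express Cebpb. The 14 macrophage markers in the table summed to 45.8 to 51.8 RPKM in control and 15.9 to 37.7 RPKM in mutant hearts. None of these markers was at 0, and of the 12 tested all had a negative log2 change. None of the 12 passed the threshold, against 0.818% of all tested genes. The part of macrophages in the Cebpb level was not tested.

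Cebpg (ENSMUSG00000056216, chromosome 7, 35046422 to 35056573, minus strand), a C/EBP protein that lacks a strong activation domain and pairs with ATF4, had 2.89, 2.76 and 2.47 RPKM in controls 2, 5 and 9. Mutants 5, 8 and 10 had 4.37, 3.40 and 4.53 RPKM. The groups did not overlap, but mutant 8 lay only 1.18 times above the highest control. The means were 2.71 ± 0.214 and 4.10 ± 0.611 RPKM (SD, n = 3; log2 change 0.45 ± 0.12 SE, 95% interval 0.19 to 0.72, limma adjusted p = 0.16).

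Atf3 (ENSMUSG00000026628, chromosome 1, 191170296 to 191218039, minus strand), a stress-induced bZIP factor that mostly represses, was the second most abundant of the 7 in control hearts. It measured 4.58, 6.17 and 5.58 RPKM in controls 2, 5 and 9 and 5.85, 6.92 and 8.64 RPKM in mutants 5, 8 and 10. Mutant 5 lay between controls 9 and 5, so the groups overlapped. The means were 5.45 ± 0.806 and 7.13 ± 1.41 RPKM (SD, n = 3; log2 change 0.33 ± 0.15 SE, limma adjusted p = 0.45). The 95% interval of the log2 change, −0.002 to 0.66, lay below the intervals of Atf4 (0.69 to 1.11), Atf5 (1.09 to 1.80), Ddit3 (1.58 to 2.06) and Trib3 (2.26 to 2.90). The Atf3 interval overlapped those of Cebpb (0.54 to 1.10) and Cebpg (0.19 to 0.72). Atf3 is also an immediate early gene that dissection can induce. The 13 immediate early genes in the table summed to 47.7 to 54.3 RPKM in control and 52.0 to 53.0 RPKM in mutant hearts. None of 12 tested passed the threshold, against 0.818% of all tested genes, and their median log2 change was 0.03. Those with the smallest p were Dusp1 (4.10 and 3.66 RPKM) and Klf6 (6.86 and 6.18 RPKM). The part of dissection in the Atf3 level was not tested.

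**Figure D2:**
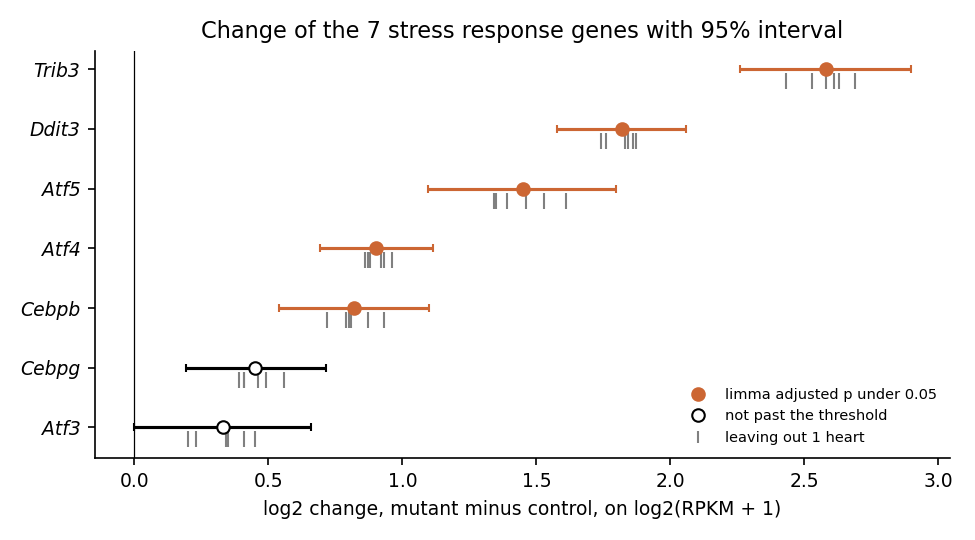
Log2 change (mutant minus control, on log2(RPKM + 1)) of the 7 genes with its 95% interval. Filled points passed limma's adjusted p of 0.05, and grey ticks are the values with 1 heart left out, which reach from 0.20 (Atf3) to 2.69 (Trib3).

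The order of the 7 levels differed between genotypes. In control hearts the order by mean RPKM was Atf4, Atf3, Atf5, Ddit3, Cebpg, Cebpb and Trib3. Neighbours in that order overlapped for Atf3 and Atf5, for Atf5 and Ddit3, and for Cebpb and Trib3. In mutant hearts the order was Atf4, Ddit3, Atf5, Trib3, Atf3, Cebpg and Cebpb, with overlap between Atf5 and Trib3 and between Cebpg and Cebpb. Trib3 thus moved from the last place to the fourth, and Atf3 from the second to the fifth. The 7 genes together summed to 47.2, 54.1 and 51.0 RPKM in controls 2, 5 and 9 and to 109, 127 and 116 RPKM in mutants 5, 8 and 10. Atf4 made up 62.6%, 62.0% and 58.2% of that sum in the control hearts and 51.7%, 49.2% and 49.3% in the mutant hearts.

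Within each heart, the level of a gene relative to Atf4 does not depend on how the library was scaled. Trib3 stood at 0.0294, 0.0299 and 0.0386 of the Atf4 RPKM in controls 2, 5 and 9 and at 0.183, 0.220 and 0.161 in mutants 5, 8 and 10. Ddit3 stood at 0.134, 0.140 and 0.165 of Atf4 in the control hearts and at 0.318, 0.322 and 0.302 in the mutant hearts. Both ratios were higher in every mutant heart than in any control heart. Atf5 relative to Atf4 ranged from 0.133 to 0.181 in control and from 0.201 to 0.277 in mutant hearts. Cebpb relative to Atf4 overlapped between the genotypes (0.033 to 0.0615 and 0.0533 to 0.0594). Atf3 and Cebpg were lower relative to Atf4 in the mutant hearts, with Atf3 at 0.155 to 0.188 in control and 0.103 to 0.151 in mutant hearts and Cebpg at 0.0824 to 0.098 and 0.0546 to 0.0793. Their mutant means were 1.31 and 1.51 times the control means, against 1.90 times for Atf4. These lower ratios thus restate the larger rise of Atf4 and show no fall of Atf3 or Cebpg. Trib3 relative to Ddit3 was 0.213 to 0.234 in control and 0.535 to 0.684 in mutant hearts. These ratios are given as values, and no test was run on them. An exact two-sided permutation test of 3 hearts against 3 cannot give a p below 0.10.

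**Figure D3:**
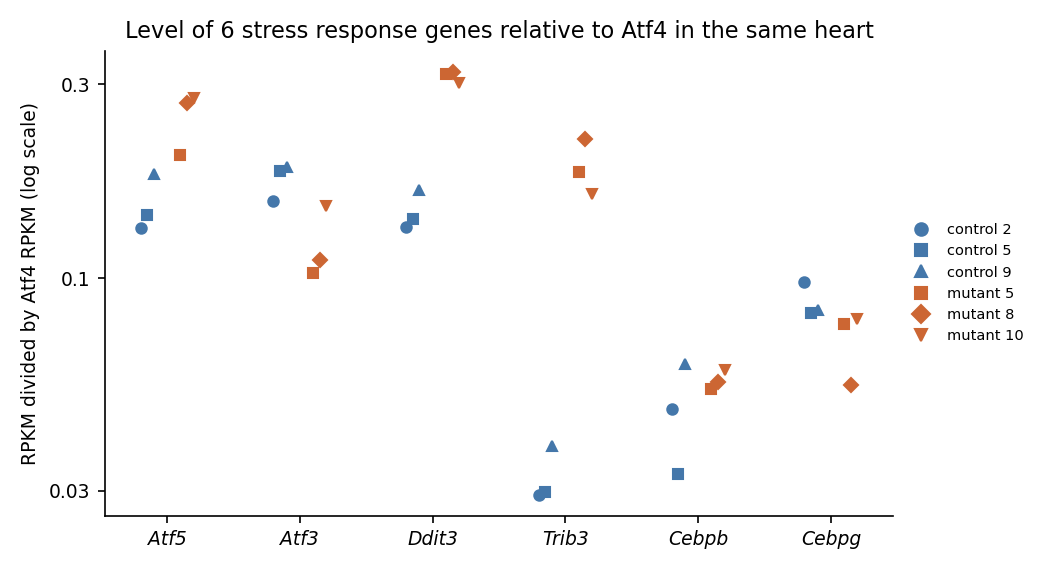
RPKM of 6 genes divided by the Atf4 RPKM of the same heart (log axis), control hearts in blue and mutant hearts in orange. The Ddit3 and Trib3 ratios are higher in all mutant hearts, Atf3 and Cebpg lower, and Cebpb overlaps.

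The mutant hearts did not rank alike for all genes. Mutant 8 was the highest mutant for Atf4, Atf5, Ddit3, Trib3 and Cebpb, and it was the lowest for Cebpg. Mutant 10 was the highest for Atf3 and Cebpg and the lowest for Trib3 and Ddit3. The median over the 7 genes of the deviation from the control mean on the log2 scale was 0.85, 0.99 and 0.87 in mutants 5, 8 and 10 and −0.10, 0.03 and 0.10 in controls 2, 5 and 9. Mutant 8 was also the library with the fewest implied reads and 1 of those without chromosome Y expression, and the part of either in these ranks was not tested. Without mutant 8 the log2 changes of Trib3, Ddit3, Atf5 and Atf4 were 2.43, 1.76, 1.34 and 0.86, all past the threshold.

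The leaders and promoters of the genes were read from the reference to show what the 7 have in common beyond their levels. In GENCODE M21 the coding transcript with the longest reading frame had 3 upstream ATG triplets in Atf4, 2 in Atf5, 2 in Ddit3, 1 in Atf3 and 1 in Cebpg, and none in Trib3 or Cebpb. An upstream frame that runs past the start of the coding sequence in another frame was found in Atf4 and Atf5 alone among the 7. Of 11336 tested genes with a coding transcript and a leader, 50.6% had an upstream ATG and 16.3% had such an overlapping frame. RefSeq promoter windows (GRCm38.p6, 250 bases before to 50 bases after the start) were present for all 7 genes, with 2 windows for Atf5. They were searched on both strands for TGATGNAA (reverse complement TTNCATCA), the core of the composite ATF4 and C/EBP element, for TGACGTNA, an ATF/CRE element, and for ACGTG, the core that HIF binds. The composite core occurred in the windows of Atf3 and Trib3, against 3.97% of 32851 windows. The ATF/CRE form occurred in Atf3 (2.93% of windows) and the HIF core in Ddit3 (19.6% of windows). The matches in the genes with the largest and the smallest log2 change of the 7 are printed 5′ to 3′ on the gene's strand, with the matches in capitals.

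Atf3, chr1:191183334-191183483, minus strand: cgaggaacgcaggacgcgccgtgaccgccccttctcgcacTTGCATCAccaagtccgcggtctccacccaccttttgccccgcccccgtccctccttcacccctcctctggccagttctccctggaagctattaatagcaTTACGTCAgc
Trib3, chr2:152344039-152344160, minus strand: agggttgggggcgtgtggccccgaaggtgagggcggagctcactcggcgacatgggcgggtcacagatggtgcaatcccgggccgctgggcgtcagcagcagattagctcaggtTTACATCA

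In Atf3 the composite core began 110 bases before the RefSeq start and the ATF/CRE form 10 bases before it. In Trib3 the composite core began at base 15 counted from the RefSeq start. By GENCODE, the stretch printed for Trib3 shares 0 bases with the gene's exons and lies before its start at 152344032. The log2 change was 0.33 for Atf3 and 2.58 for Trib3. Ddit3, Atf5, Atf4 and Cebpb, which passed the threshold as Trib3 did, had no match to the composite core in these windows. Sequence farther than 250 bases before the start was not searched. The part of these elements in the changes was not tested. A match is a run of letters and not a bound site.

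With all 6 hearts, known ATF4 target genes outside the 7 were higher in the mutant hearts in the majority of cases. The list was chosen with earlier results of these data known. Of 39 genes on that list 38 were in the table and 36 were tested. Of the tested genes 22 rose (61.1%) and none fell, against 0.42% upward and 0.398% downward over all tested genes. That count includes Chac1, Slc7a3 and Nupr1, with control means of 0.217, 0.317 and 0.659 RPKM. They passed the filter on low values through the mutant hearts alone, so they could not have been called lower. The median log2 change of the 36 was 0.71, against 0.90 for the 7 genes and −0.03 for all tested genes. The 6 with the smallest p were Asns, Slc7a3, Mthfd2, Chac1, Phgdh and Cth. Asns, asparagine synthetase, had 9.50, 9.60 and 10.6 RPKM in controls 2, 5 and 9 and 46.1, 45.5 and 47.8 RPKM in mutants 5, 8 and 10 (log2 change 2.12 ± 0.09 SE, limma adjusted p = 2.5e-05). Chac1, which degrades glutathione and is a known target of ATF4 and CHOP, had 0.158, 0.159 and 0.335 RPKM in controls 2, 5 and 9 and 3.54, 4.01 and 2.71 RPKM in mutants 5, 8 and 10 (log2 change 1.85 ± 0.13 SE, limma adjusted p = 0.00029). Cth, which makes cysteine from cystathionine, rose from 0.971 ± 0.158 to 3.45 ± 0.267 RPKM (SD, n = 3; log2 change 1.18, limma adjusted p = 0.0013). The count of genes that rose was 14, less than a majority of the 36, without control 2, control 5 or mutant 10.

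Of 8 tested CHOP-linked genes 2 rose and none fell, against 0.42% upward and 0.398% downward over all tested genes. The median log2 change was 0.05. Ppp1r15a, which encodes the GADD34 subunit that brings a phosphatase to eIF2 and so ends the response, had 3.52, 4.28 and 3.85 RPKM in controls 2, 5 and 9 and 7.04, 7.29 and 6.66 RPKM in mutants 5, 8 and 10 (log2 change 0.71 ± 0.10 SE, limma adjusted p = 0.012). Leaving out control 9 (limma adjusted p = 0.059) or mutant 10 (0.065) ended that call. Gadd45a, known from cell cycle arrest after stress, had means of 1.74 ± 0.28 in control and 4.24 ± 0.45 RPKM in mutant hearts (SD, n = 3; log2 change 0.94, limma adjusted p = 0.0070). The other 6, among them the apoptosis genes Bbc3, Bcl2l11, Bcl2 and Tnfrsf10b, did not pass, with log2 changes from −0.20 to 0.18.

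**Figure D4:**
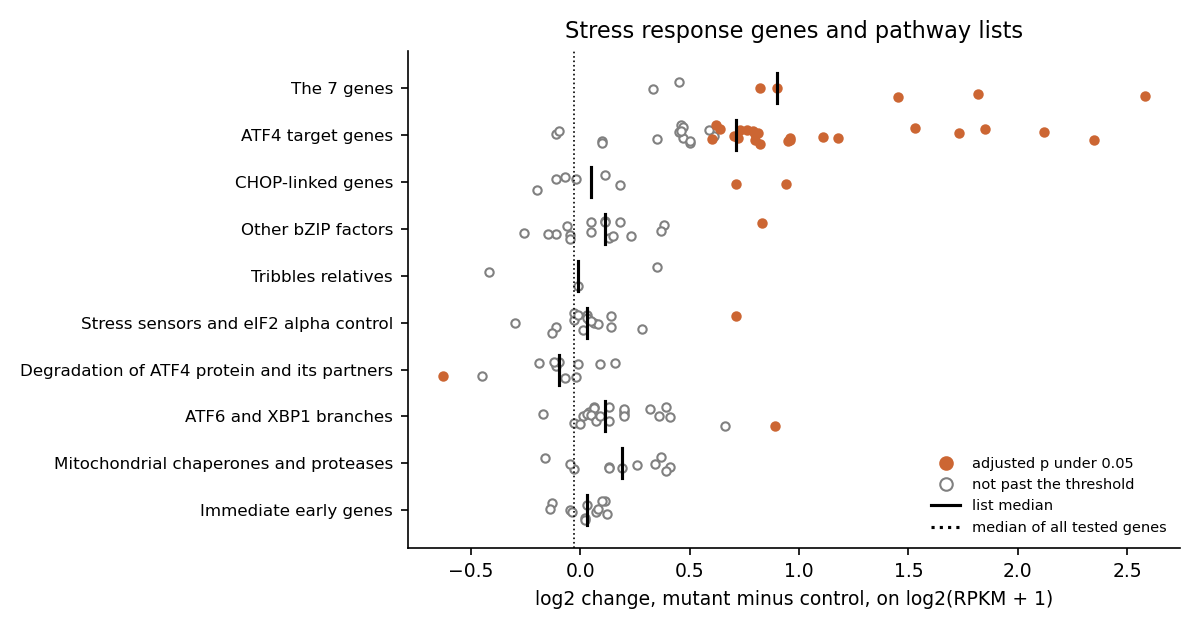
Log2 change of each tested gene (points, filled where limma's adjusted p was under 0.05) for the 7 genes and 9 pathway lists, with list medians (bars) and the median of all tested genes (dotted line, −0.03). Most filled points lie among the 7 genes (5) and the ATF4 targets (22). Over all tested genes 0.818% passed.

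Other bZIP genes whose products can pair with these factors changed in 1 of 17 tested cases, against 0.818% of all tested genes. Jdp2, a repressor related to Atf3, had 1.70, 2.21 and 2.17 RPKM in controls 2, 5 and 9 and 3.83, 4.88 and 4.41 RPKM in mutants 5, 8 and 10 (log2 change 0.83 ± 0.12 SE, limma adjusted p = 0.014). The groups lay apart, but the call was lost without control 2 (limma adjusted p = 0.052), control 5 (0.061) or mutant 10 (0.085). The most abundant of the list, Jund (21.2 ± 4.10 and 23.0 ± 2.41 RPKM, SD, n = 3) and Nfe2l1 (18.4 ± 1.83 and 21.8 ± 1.09 RPKM), did not pass. The list's median log2 change was 0.11. Among relatives of Trib3 none of 3 passed. Trib2 measured 9.75 ± 0.528 and 7.02 ± 0.6 RPKM (SD, n = 3; log2 change −0.42, limma adjusted p = 0.11), Stk40 5.82 and 7.72 RPKM (adjusted p = 0.21) and Trib1 1.66 and 1.64 RPKM. In control hearts Trib2 was at a higher RPKM than Trib3 in every heart, and in the mutant hearts Trib3 was at the higher RPKM in every heart.

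**Figure D5:**
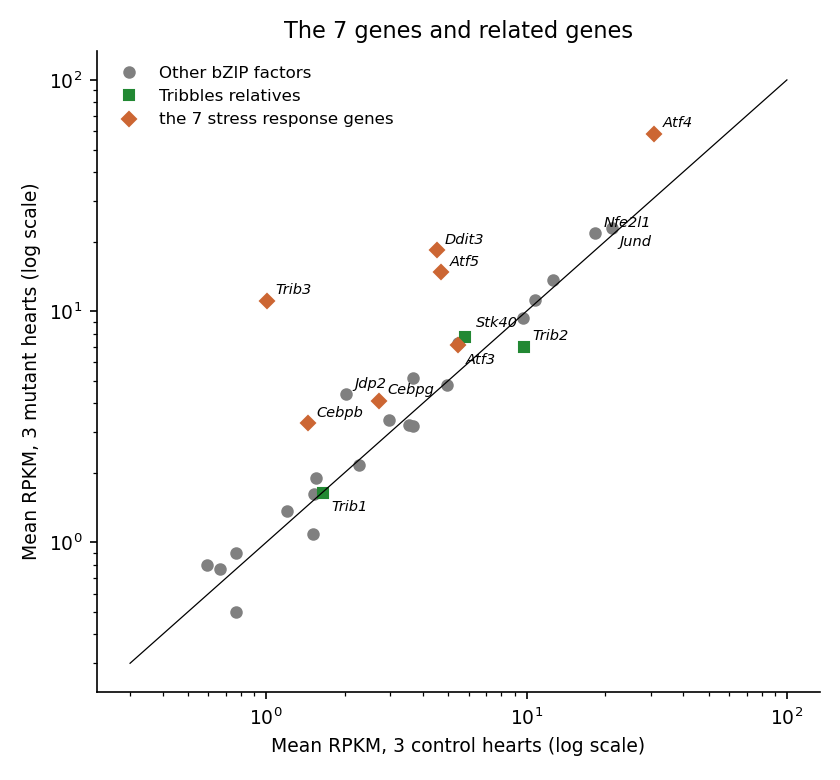
Mean RPKM of 3 mutant hearts against that of 3 control hearts (both axes log) for the 7 genes, 21 other bZIP genes and 3 relatives of Trib3, with the line of equal level. Trib3, Ddit3 and Atf5 lie farthest above the line, and Trib2 lies below it at 9.75 and 7.02 RPKM.

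Genes upstream of ATF4 and of neighbouring stress branches were set beside these. Over all tested genes 0.42% passed the threshold upward and 0.398% downward. Of 17 tested stress sensors and eIF2 regulators Ppp1r15a alone passed, upward, and the median log2 change was 0.03. Of 11 tested genes linked to ATF4 protein turnover and cofactors, Egln1, an oxygen-sensing prolyl hydroxylase, alone passed. It had 12.7, 14.2 and 15.3 RPKM in controls 2, 5 and 9 and 9.28, 8.14 and 8.79 RPKM in mutants 5, 8 and 10 (log2 change −0.63 ± 0.10 SE, limma adjusted p = 0.028). That call was lost without control 5 (limma adjusted p = 0.16), control 9 (0.14), mutant 8 (0.071) or mutant 10 (0.14). Its relatives Egln3 (3.04 and 2.00 RPKM, limma adjusted p = 0.35) and Egln2 (10.9 and 12.3 RPKM, 0.62) did not pass. Whether the Egln1 level bears on ATF4 protein was not tested. Of 24 tested genes of the ATF6 and XBP1 branches 22 had a log2 change above 0, against 42.6% of all tested genes. Among the 24, 1 passed the threshold, upward. That gene, Herpud1, encodes a protein of endoplasmic reticulum degradation and went from 12.1 ± 0.672 to 23.3 ± 0.637 RPKM (SD, n = 3; log2 change 0.89, limma adjusted p = 0.0021), and the list's median log2 change was 0.11. None of 11 mitochondrial chaperone and protease genes passed, with a median log2 change of 0.19. Hspa9 measured 162 ± 5.42 and 217 ± 18.1 RPKM (SD, n = 3; limma adjusted p = 0.12) and Lonp1 17.9 ± 1.39 and 23.7 ± 0.985 RPKM (adjusted p = 0.14).

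Genes with the profile closest to each of the 5 called genes were found by the root mean square difference between log2(RPKM + 1) profiles over the 6 hearts, each centred on its own mean, among 9709 genes, which leave out the 7 genes themselves. The step between genotypes makes up most of the profiles of the called genes. Likeness is thus mostly a similar log2 change and no separate evidence. Closest to Atf4 were the alanine aminotransferase Gpt2 (0.083), the alanyl-tRNA synthetase Aars (0.085) and the seryl-tRNA synthetase Sars (0.090). Closest to Atf5 were Bcat1 (0.143), Mt2 (0.194) and Mthfd2 (0.210), and closest to Ddit3 were Mthfd2 (0.152), Asns (0.181) and Aldh1l2 (0.248). Trib3 ranked 2 of 13080 genes by log2 change, so few candidates had a change as large. Its nearest candidate was farther away than for the other 4, with Slc7a3 at 0.215, Asns at 0.289 and Mthfd2 at 0.478. Cebpb was closest to Pycr1 (0.089), Aldh18a1 (0.094) and Cyb5r1 (0.098). Gpt2, which rose from 1.41 to 3.50 RPKM, and Cyb5r1 (5.75 and 11.1 RPKM) belonged to none of the lists used here.

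Markers of other cell types were set beside these values. None of the 12 heart muscle, 12 epicardial and mesenchymal, 10 endothelial or 8 erythroid markers tested passed the threshold. The share over all tested genes was 0.818%, so lists this short would seldom hold a call. The median log2 changes of these lists, in that order, were 0.03, −0.37, −0.17 and −0.02. Negative log2 changes were found in 5 heart muscle, 11 epicardial and mesenchymal, 8 endothelial and 5 erythroid markers. Epicardial and mesenchymal markers summed to 494 to 537 RPKM in control and 312 to 431 RPKM in mutant hearts. That sum was led by the collagen genes Col3a1 (means of 126 and 93.7 RPKM), Col1a1 (118 and 84.4) and Col1a2 (81.8 and 46.6). Log2 changes ran from −0.83 to −0.32 in Col1a1, Col1a2, Col3a1, Postn, Pdgfra, Dcn and Lum. In Wt1, Tbx18, Tcf21, Upk3b and Aldh1a2 they ran from −0.25 to 0.04. Erythroid markers summed to 13963 to 16571 RPKM in control and 11719 to 21063 RPKM in mutant hearts. No marker of these lists was at 0 in the table. The part of cell composition in the changes of the 7 genes was not tested.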

How the data were processed

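Total RNA of each heart was extracted in TRIzol and made into Illumina libraries, per the labels' protocols. The submitters' processing notes name Trim Galore, TopHat2 and mm10. The deposited values carry Ensembl gene identifiers and a column named Constitutive_exons_used. Beyond that, the sources used here do not state how reads were counted, on which annotation release or with what strand setting. The authors deposited 1 table of RPKM values, whose unit was taken from the values, since its header names none. Reads per library were estimated from the steps of low values in genes with 1 exon (87.5% to 96.2% of values within 0.1 of a whole read, against medians of 17.8% to 19.8% for other steps). Reads behind a single gene use the length of all GENCODE exons of that gene, not of constitutive exons alone, and are approximate.

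RPKM is not a count, so limma 3.58.1 in R 4.3.3 was fitted on log2 values, log2(RPKM + 1), of the deposited table, with a mean-variance trend and no covariates, over the 13080 genes that reached 1 RPKM in 3 or more libraries (2038 not tested). All p-values are two-sided and Benjamini-Hochberg adjusted over all tested genes. The fit was tested on simulated data. The 7 genes and the 14 gene lists were chosen with earlier results of these data known, so a list's direction is not independent evidence. Named genes outside the 7 are up to 6 members with the smallest p among those past the threshold in a list, the 2 with the smallest p where none passed, and for bZIP and Tribbles genes the 2 with the highest mean. Profile likeness left out the 7 genes, predicted genes and those with a mean under 2 RPKM. Gene positions come from GENCODE M21 (mm10). Transcripts of the 7 genes were compared with all GENCODE transcripts for copies of at least 95% identity over at least 100 bases, and none was found outside the overlapping loci. Alternatives were pseudocounts of 0.1 and 5, no filter, a minimum of 5 RPKM, median centring, rescaling without haemoglobin genes, limma without trend or with a robust prior, and 1 heart left out at a time. Chosen after seeing the data were 2 sets of 4 hearts. Tables were handled with Python 3.11.15.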

Additional observations from a re-analysis of the deposited data

How the results depend on the processing

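No paired analysis was possible because the genotypes share a single sample number. All 7 genes kept the sign of their change in every setting that tested them, and Trib3, Ddit3, Atf5 and Atf4 kept their call in all 16 settings (limma adjusted p at most 0.0017, 0.0018, 0.031 and 0.039). Of 110 values of the 7 genes 105 kept their side of the threshold. Cebpb lost its call in 5 of 15 settings, 4 of them with 1 heart left out (log2 changes of 0.72 to 0.81, and of 0.72 to 0.93 over all 6 such settings). The fifth was the 4 hearts without control 2 and mutant 8, chosen after seeing the data (0.78, limma adjusted p = 0.089). The minimum of 5 RPKM did not test Cebpb or Cebpg. Cebpg and Atf3 gained a call in no setting run (limma adjusted p from 0.058 and 0.21). Among all tested genes 55 were higher and 52 lower. With 1 heart left out these counts ran from 28 to 88 and from 16 to 110. Median centring gave 57 and 34, rescaling without haemoglobin genes 54 and 81, and the 4 hearts expressing chromosome Y genes 28 and 26. The higher genes were 51.4% of the calls, and 62.6% and 40.0% under those 2 scalings, which moved the median change by less than 0.1. In the 4 hearts expressing chromosome Y genes 13 ATF4 targets, 0 CHOP-linked genes, 0 other bZIP genes and 0 stress sensors were higher, and 0 genes of ATF4 turnover lower. With 1 heart left out, ATF4 targets higher ran from 14 to 23, CHOP-linked genes from 1 to 2, other bZIP genes, stress sensors and genes of ATF4 turnover from 0 to 1. With the minimum of 5 RPKM, 1 CHOP-linked gene and 0 other bZIP genes were higher, since fewer genes were tested. With 1 heart left out, counts of markers lower ran from 0 to 2 in the macrophage list and in the epicardial and mesenchymal list. Endothelial markers lower and erythroid markers higher each ran from 0 to 1 in those settings. The endothelial list and the epicardial and mesenchymal list each had 1 lower after rescaling without haemoglobin genes. The endothelial list had 1 lower with a robust prior. The epicardial and mesenchymal list had 1 lower in the 4 hearts without control 2 and mutant 8. Among named genes 3 that never passed changed sign. Jund had −0.04 without control 2 and −0.12 in the 4 hearts without control 2 and mutant 8, where Klf6 had 0.01. Trib1 had 0.03 after median centring and in the 4 hearts expressing chromosome Y genes, and from −0.07 to 0.06 with 1 heart left out, above 0 without control 5 (0.06) or mutant 8 (0.02). The cause of these shifts was not tested.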
